A study of Gallus gallus with 300 samples.

Results

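TMPRSS3, DFNB59, LOXHD1, SMPX and XIRP2 are 5 genes tied to hearing whose messenger RNA was followed here through the hair cells and supporting cells of the chicken utricle. They were chosen by symbol, as genes linked to deafness and working in the hair cell outside the core machinery of the hair bundle, and they make up 5 of the 13631 gene symbols in the data. RNA cannot place a protein within a cell, and the mouse LOXHD1 protein is known from the hair bundle, so they are treated below as a list of genes and not of a compartment. All cells came from Gallus gallus of the wild type at posthatch day 7, and every group below shares that genotype, age and tissue. Utricle sensory epithelia were peeled from the stroma after thermolysin, several epithelia were pooled, and viable cells were sorted singly into the wells of 5 plates, numbered 2 to 6. Libraries were full-length, primed with oligo-dT, amplified by PCR and without molecular identifiers.

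The utricle is a vestibular organ that senses gravity and linear acceleration. Its hair cells turn the deflection of an apical bundle into a receptor potential, and its supporting cells surround them, are coupled by gap junctions and, in birds, can give rise to hair cells throughout life. TMPRSS3 encodes a serine protease anchored in the membrane, and its loss causes deafness in humans. DFNB59 encodes pejvakin, a member of the gasdermin family that has been linked to peroxisomes of hair cells in the mouse. LOXHD1 encodes a protein built of PLAT domains that lies along the stereocilia in the mouse, and it is a human deafness gene. SMPX is a small protein of striated muscle whose loss causes X-linked deafness in humans. XIRP2 carries Xin actin-binding repeats, is also a muscle protein, and its link to hearing comes from mouse mutants.

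Of the 300 cells, 24 had fewer than 1000 genes or 50000 counts and were left out, and the others had a median of 406691 counts per cell and a range of 66490 to 1234012. A cell was classed as a hair cell when it held a larger share of a hair cell marker panel than of a supporting cell panel at 10 counts per 1000000 (CPM) or more, which gave 32, 37, 32, 39 and 38 hair cells on plates 2 to 6. A supporting cell had the larger share of the supporting panel and GJB6, a connexin of supporting cells, at 1000 CPM or more, which gave 94 cells, and 4 cells fitted neither class. In 7 cells the panel shares lay within 10 percentage points of each other, and 8 hair cells had GJB6 at 1000 CPM or more. None of the 5 genes was in a panel. The hair cells, on which most results rest, were split by OCM, the calcium buffer oncomodulin, into 70 cells below 1000 CPM (OCM-low), 50 cells from 1000 to below 10000 CPM (OCM-middle) and 58 cells at 10000 CPM or more (OCM-high). They were also split by ATOH1, the transcription factor that starts hair cell formation, into 48 cells at 10 CPM or more and 130 below. ATOH1 was also at 10 CPM or more in 14.9% of supporting cells (95% exact binomial interval 8.39 to 23.7%), so its detection in a single cell was not particular to hair cells. No label names an animal for a cell, so all cells count as 1 sample. No difference below was tested, and none could be compared with the variation from animal to animal. Levels are the mean CPM of the 5 plates ± SD of the plate means, and detection means 10 CPM or more. Intervals are exact, and where a share is 0 the limit given instead is 3 cells of the total. Intervals and limits of a share treat the cells of a group as independent and leave out the spread between plates and animals. Intervals of a count treat reads as independent molecules, which PCR reads are not, so they do not cover all of the counting error. CPM is not corrected for transcript length, so the genes are not ranked against each other by level.

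All 5 genes were far higher in hair cells than in supporting cells. A gene was called when the log2 ratio of the mean CPM, with 1 CPM added, was at least 1 in size and had the same sign on every plate with enough cells. By this rule, which is one of size and not a test, 17.4% of the 10677 genes measured were called higher in hair cells and 9.24% lower, and 5 of the 5 genes were called higher. The median log2 ratio of the 5 genes was 4.08, beside 0.10 for all genes. The 5 genes were listed with earlier results of these data known, so these comparisons with all genes are descriptions.

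TMPRSS3, the membrane protease, stood at 694, 729, 787, 996 and 708 CPM in the hair cells of plates 2 to 6, and at 54.4, 17.7, 0.16, 85.1 and 0 CPM in their supporting cells. The lowest plate of hair cells was thus well above the highest plate of supporting cells. Its log2 ratio was 4.59 (783 ± 124.2 against 31.5 ± 37.3 CPM, SD, n = 5 plates), and it was detected in 76.97% of hair cells (70.1 to 82.9%). DFNB59, the pejvakin gene, stood at 534, 358, 385, 416 and 494 CPM in hair cells and at 70.8, 39.97, 0, 28.8 and 0.19 CPM in supporting cells. Its log2 ratio was 3.92 (438 ± 74.1 against 27.95 ± 29.7 CPM), with detection in 81.5% of hair cells (74.96 to 86.9%). The SD of its hair cell plates was small beside the gap to the supporting cells, and the plates of the 2 groups did not overlap. The share of all genes with plates apart in this way was not counted, here or below.

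XIRP2, the Xin repeat gene, was the gene of the 5 detected in most hair cells, 87.6% (81.9 to 92.1%). Its plates stood at 1193, 621, 589, 1057 and 725 CPM in hair cells and at 101.3, 31.4, 0.12, 109.5 and 0 CPM in supporting cells, a log2 ratio of 4.08 (837 ± 271.9 against 48.5 ± 53.6 CPM). SMPX stood at 157.4, 156.003, 216.03, 216.7 and 163.6 CPM in hair cells and at 36.5, 2.73, 4.99, 8.54 and 0 CPM in supporting cells. Its log2 ratio was 3.99 (181.9 ± 31.6 against 10.6 ± 14.8 CPM), and 76.97% of hair cells held it (70.1 to 82.9%). For both muscle-related genes the plates of the 2 classes were fully apart, which was not counted over all genes.

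LOXHD1 had a log2 ratio of 6.37, and it was detected in the fewest hair cells of the 5, 36.5% (29.4 to 44.05%). That ratio was the highest of the 5 in the mean CPM of all supporting cells, but not without the 5 wells described below, and with the difference of mean log2(CPM + 1) it was the lowest, at 3.45 against 7.65 for XIRP2. Its plates stood at 457, 242.7, 1317, 1072 and 1509 CPM in hair cells and at 23.9, 0, 6.20, 20.2 and 0.51 CPM in supporting cells (919.6 ± 548 against 10.2 ± 11.2 CPM). The level varied several-fold between plates, while the detection share was even, from 34.2 to 41.03% of hair cells by plate. A few cells with very high levels carried much of the mean, since the 3 highest hair cells held 38.8% of the summed CPM of LOXHD1, against 7.71% for DFNB59 and 8.00% for XIRP2. Hair cells had more genes detected than supporting cells, with medians of 3449.5 and 1864 genes. With every cell thinned to 50000 counts, the detection shares in hair cells were 77.5% for TMPRSS3, 80.3% for DFNB59, 37.1% for LOXHD1, 75.3% for SMPX and 85.96% for XIRP2, close to the shares before thinning.

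**Figure D1:**
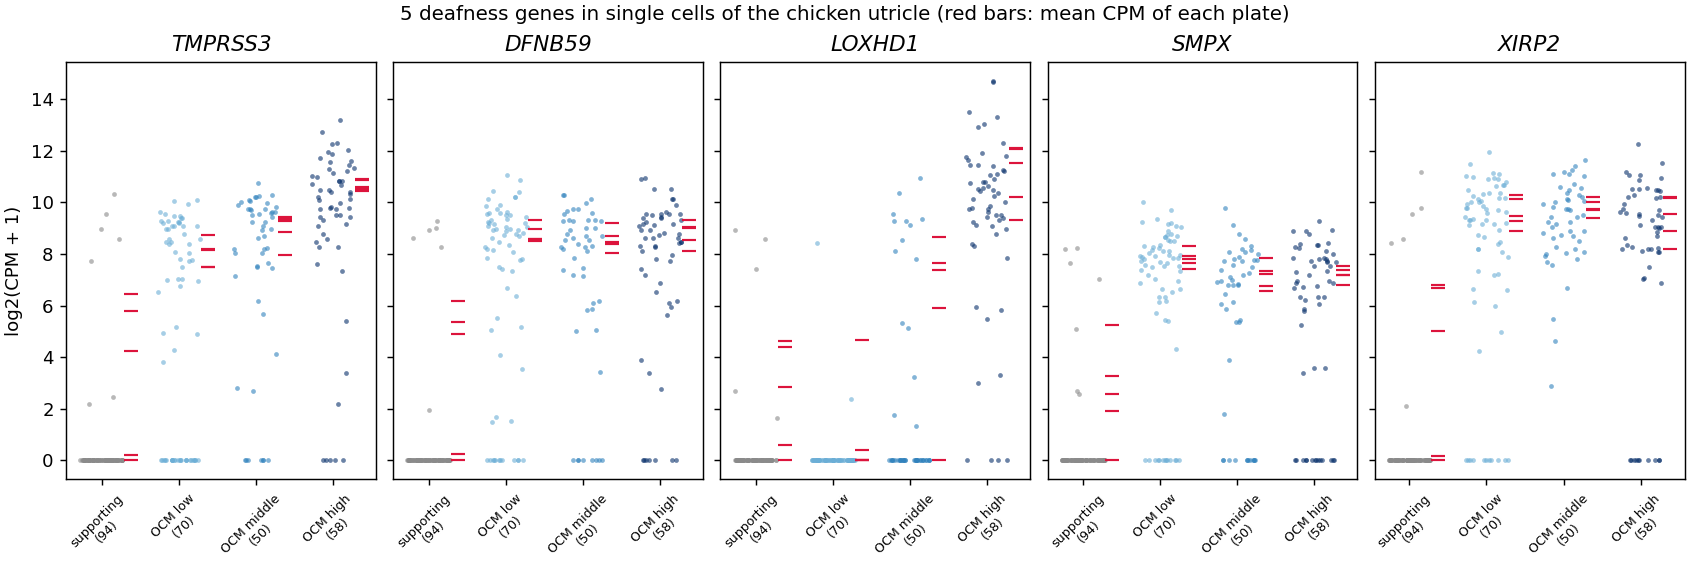
Level of each gene as log2(CPM + 1) in every supporting cell and in hair cells of low, middle and high OCM, with numbers of cells in brackets. Points are cells spread sideways, and red bars are the mean CPM of each plate on the same scale. LOXHD1 is nearly absent from OCM-low cells and present in most OCM-high cells, TMPRSS3 is highest in OCM-high cells, and DFNB59, SMPX and XIRP2 are spread over all 3 hair cell groups.

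The signal in supporting cells came from few cells. Detection there was 5.32% (1.75 to 11.98%) for each of TMPRSS3, DFNB59, SMPX and XIRP2, and 3.19% (0.66 to 9.04%) for LOXHD1. Only 8 of the 94 supporting cells held any of the 5 genes. In 5 of these, 4 of the 5 genes were detected together, and the same cells held 57.9 to 68.4% of the hair cell panel, against a median of 10.5% over all supporting cells. One of them, on plate 5, had 1292 CPM of TMPRSS3, 389 of DFNB59, 484 of LOXHD1 and 2282 of XIRP2 beside 7169 CPM of GJB6. Whether such wells held more than 1 cell was not tested.

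Without these 5 wells, a choice made after seeing the data, the remaining 89 supporting cells were almost free of 3 of the genes. TMPRSS3 had 3 counts in all of them (95% exact Poisson interval 0.62 to 8.77), and DFNB59 and XIRP2 had 1 count each (0.03 to 5.57). Each of these 3 genes was detected in 0 of 89 cells, which allows a share of up to 3.37%. SMPX was left in 1 cell at 129.8 CPM, and LOXHD1 in 2 cells at 167.4 and 382 CPM. Those 3 cells held 10.5 to 15.8% of the hair cell panel and GJB6 at 24357 CPM or more. The log2 ratio of hair to supporting cells then stood at 9.48 for TMPRSS3, 8.72 for DFNB59 and 9.68 for XIRP2. It was 6.88 for LOXHD1 and 6.52 for SMPX. The first 3 rest mostly on the 1 CPM added, and SMPX, at 0.998 CPM in these supporting cells, depends on it too. With the 1 CPM added, LOXHD1 was then the 4th of the 5.

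Within hair cells, LOXHD1 and TMPRSS3 were higher where OCM was high, and the other genes were not. Between OCM-high and OCM-low cells, 3.61% of all genes were called higher and 4.34% lower, and 2 of the 5 genes were called higher. Depth was much alike, with medians of 3342, 3753.5 and 3311.5 genes in OCM-low, OCM-middle and OCM-high cells. The median share of the hair cell panel was not, at 55.3, 63.2 and 73.7% in the same order. LOXHD1 was detected in 1 of 70 OCM-low cells, 12 of 50 OCM-middle cells and 52 of 58 OCM-high cells, or 1.43% (0.04 to 7.70%), 24% (13.1 to 38.2%) and 89.7% (78.8 to 96.1%). These intervals pool the cells of all plates and are no comparison of the groups. By plate the shares were 0 to 7.14% in OCM-low, 0 to 37.5% in OCM-middle and 81.8 to 92.9% in OCM-high cells. In level, however, LOXHD1 was not called between OCM-middle and OCM-low cells. Its log2 ratio there was 4.80 ± 5.43 (SD of the plate ratios), with OCM-middle cells higher on 4 plates and lower on 1. Its detection in OCM-low cells was no higher than the 3.19% of supporting cells.

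LOXHD1 stood at 1187, 638, 4328, 2940 and 4383 CPM in the OCM-high cells of plates 2 to 6, and at 0.32, 0, 0, 0 and 24.2 CPM in their OCM-low cells. The log2 ratio was 8.83 (2695 ± 1738 against 4.91 ± 10.8 CPM), the 4th highest of 10677 genes, and nearly all of the OCM-low signal was 1 cell at 339 CPM on plate 6. Without plate 6 the ratio was 11.04 on the log2 scale. On every plate at least 81.8% of OCM-high cells held LOXHD1, so the wide spread in level was not one of detection. The 3 highest of the 58 cells held 40.7% of the summed CPM, and the median OCM-high cell stood at 1166 CPM beside a highest cell of 26476 CPM.

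TMPRSS3 differed between the OCM groups more in level than in detection. Its plates stood at 177.8, 288.8, 179.4, 420.3 and 286.8 CPM in OCM-low cells and at 1478, 1384, 1887, 1865 and 1553 CPM in OCM-high cells. The highest OCM-low plate lay far below the lowest OCM-high plate, and the log2 ratio was 2.59 ± 0.54 (SD of the plate ratios), or 6.02-fold (1633 ± 229.6 against 270.6 ± 99.9 CPM). OCM-middle cells lay between them at 530.4 ± 182.1 CPM, 0.97 on the log2 scale above OCM-low and higher on 4 of 5 plates, which did not meet the rule for a call that 1.8% of all genes met in that direction. Its detection went from 64.3% (51.9 to 75.4%) in OCM-low to 82% (68.6 to 91.4%) in OCM-middle and 87.9% (76.7 to 95.01%) in OCM-high cells. Among cells that held TMPRSS3 the median was 377 CPM in OCM-low, 685 in OCM-middle and 1363 in OCM-high cells.

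**Figure D2:**
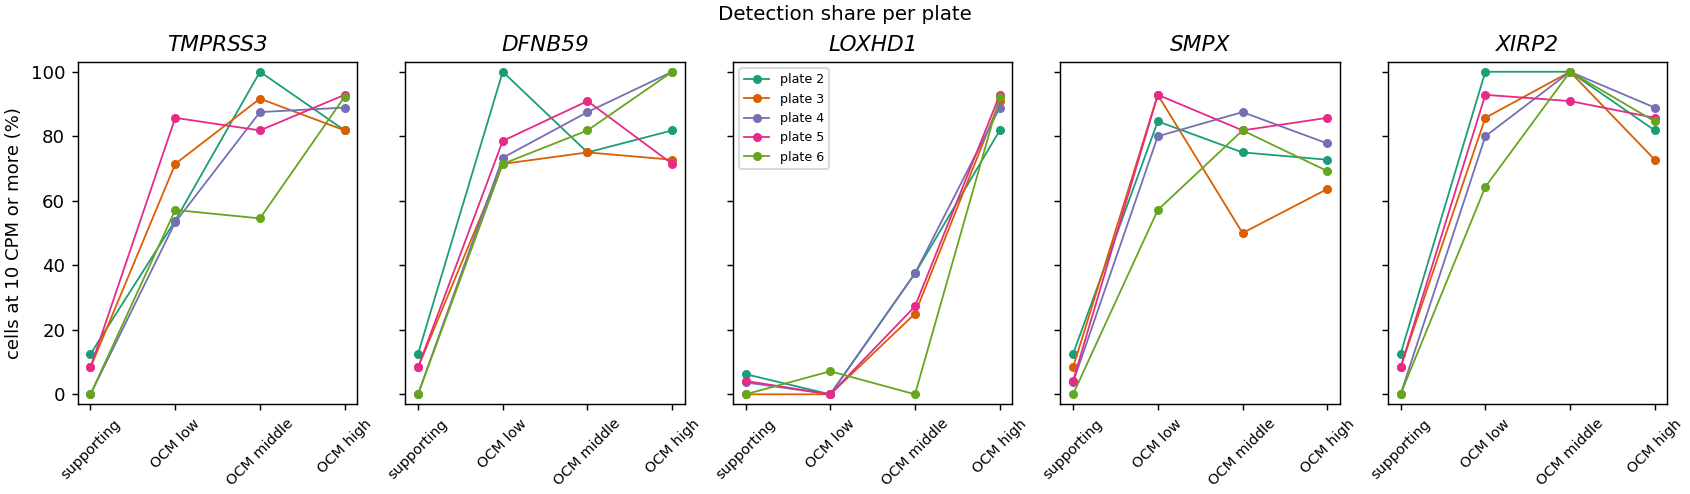
Share of cells at 10 CPM or more (y axis, percent) for each gene in supporting cells and in hair cells of low, middle and high OCM, with 1 line per plate. LOXHD1 is in 0 to 7.14% of OCM-low cells and in 81.8 to 92.9% of OCM-high cells by plate, whereas the other genes are in over 50% of cells of nearly every hair cell group.

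The OCM-high cells were not alike in TMPRSS3. KCNAB1, a potassium channel subunit and a type I hair cell marker in the marker list used, was detected in 36 of the 58 OCM-high cells and not in 22, and this split was made after seeing the data. Of the other type I markers listed, CPZ was in 65.5% of OCM-high cells, CYP26A1 in 27.6% and TPD52L1 in 20.7%, and SPP1 had 0 counts. Of the type II markers listed, ISL1 went from 1.43% of OCM-low to 58.6% of OCM-high cells, and CALB2 from 98.6 to 51.7%. The split is therefore one by KCNAB1 and not by hair cell type. With KCNAB1, TMPRSS3 stood at 2089, 1809, 2297, 3359 and 2058 CPM on plates 2 to 6. Without it, TMPRSS3 stood at 410, 248.2, 452, 745 and 744 CPM, so the lowest plate with KCNAB1 was above the highest plate without. These values without KCNAB1 rest on only 4, 3, 2, 8 and 5 cells, and the share of all genes with plates apart was not counted. On the 4 plates with at least 3 cells of each kind, TMPRSS3 was 4.33-fold higher with KCNAB1 (log2 ratio 2.12 ± 0.58), and 5.72% of all genes were called higher in this comparison. The median OCM of the 2 kinds was 27204 and 22170 CPM.

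In OCM-high cells without KCNAB1 the level of TMPRSS3 was 0.87 on the log2 scale above that of OCM-low cells, higher on 3 of 4 plates and under the rule for a call. LOXHD1 differed from this pattern. It was detected in 17 of the 22 OCM-high cells without KCNAB1 and in 35 of the 36 with it, and even without KCNAB1 it was called higher than in OCM-low cells, a comparison in which 2.45% of all genes were called higher. Its level with KCNAB1 was 2.38 higher on the log2 scale over 4 plates and was called. Plate 4, which had 2 cells without KCNAB1, went the other way, with 1839 CPM with KCNAB1 and 13041 CPM without it, and 1 of those 2 cells held the whole of the latter value. ATOH1 was detected in 0 of the 36 cells with KCNAB1, which allows a share of up to 8.33%, and in 4 of the 22 without.

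DFNB59, XIRP2 and SMPX were not called between OCM-high and OCM-low cells. DFNB59 had 461 ± 138.8 CPM in OCM-high and 449.9 ± 117.9 CPM in OCM-low cells, a log2 ratio of 0.04 that was above 0 on 3 of 5 plates. XIRP2 had 769 ± 396 and 824 ± 328 CPM, a log2 ratio of -0.10 that was below 0 on 3 of 5 plates. Their plate ratios had SDs of 0.60 and 0.72, larger than the ratios themselves. SMPX, the small muscle protein, stood at 196.8, 219.2, 317, 238.1 and 171.7 CPM in OCM-low cells and at 109.1, 144.9, 143.5, 184.6 and 166.4 CPM in OCM-high cells of plates 2 to 6. It was lower in OCM-high cells on 5 of 5 plates, the ratio of -0.61 ± 0.42 on the log2 scale was under the size needed for a call, and the ranges of the plates overlapped. Its level in OCM-middle cells, 147.997 ± 53.99 CPM, was close to the 149.7 ± 28.3 CPM of OCM-high cells.

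**Figure D3:**
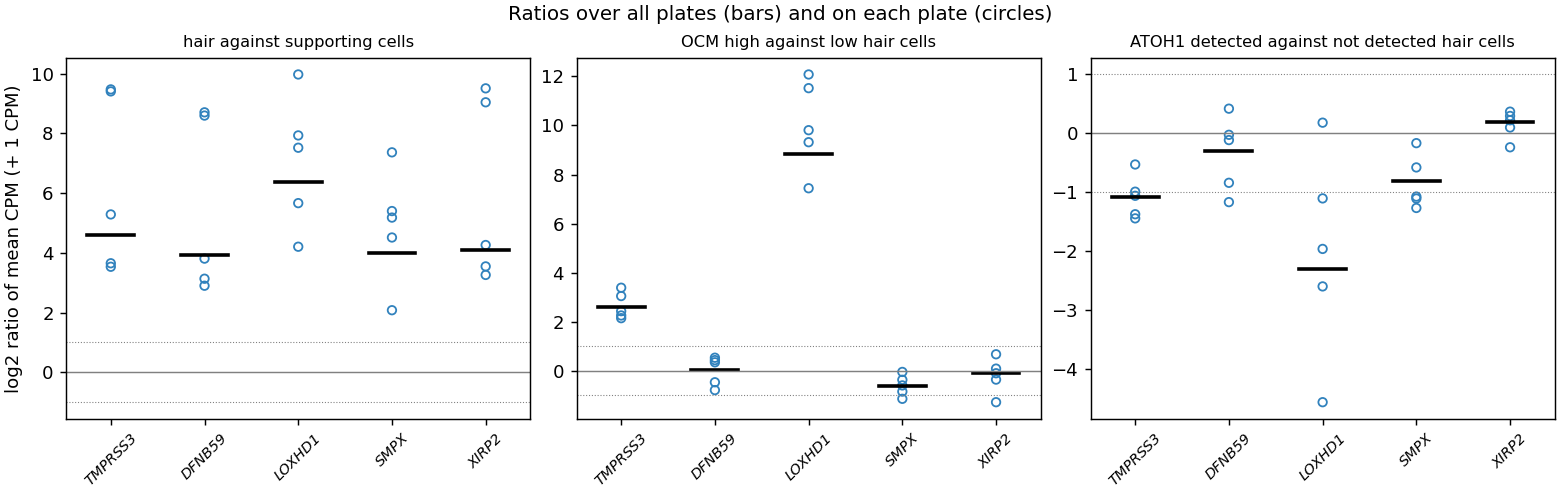
Log2 ratio of mean CPM with 1 CPM added for each gene in 3 comparisons of cells, with a bar for the ratio over the 5 plates and circles for the ratio on each plate. Dotted lines mark a ratio of 1 and -1 on the log2 scale, the size needed for a call. All 5 genes lie above 2 on every plate for hair against supporting cells, only TMPRSS3 and LOXHD1 lie above the upper dotted line for OCM, and for ATOH1 the ratios over the plates are below 0 for all genes but XIRP2.

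In finer steps of OCM, chosen after seeing the data, LOXHD1 was detected in a share of cells that rose from 1000 to 30000 CPM. It was detected in 0 of 18 cells with OCM below 10 CPM, which allows up to 16.7%, in 0 of 13 cells from 10 to below 100 CPM, which allows up to 23.1%, and in 1 of 39 cells from 100 to below 1000 CPM. It was found in 2 of 28 cells from 1000 to below 3000 CPM and in 10 of 22 from 3000 to below 10000 CPM. Above that it was in 15 of 19 cells from 10000 to below 20000 CPM, in 20 of 21 to below 30000 CPM and in 17 of 18 from 30000 CPM. Of all hair cells, 28 had OCM within 2-fold of 1000 CPM and 29 within 2-fold of 10000 CPM. Across the hair cells the Pearson correlation of log2(CPM + 1) between LOXHD1 and OCM was 0.66, from 0.62 to 0.72 by plate, and Spearman's rho was 0.80. For TMPRSS3 and OCM it was 0.41, from 0.19 to 0.52 by plate. Both are descriptions over cells that share plates, depth and the zeros of undetected genes.

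In OCM-middle cells LOXHD1 went with ATOH1. Of the 22 OCM-middle cells with ATOH1, 11 held LOXHD1, or 50% (28.2 to 71.8%), and of the 28 without ATOH1 1 did, or 3.57% (0.09 to 18.3%). The LOXHD1-positive cells with ATOH1 came from 4 plates, and no OCM-middle cell of plate 6 held LOXHD1. OCM was also higher in the cells with ATOH1, with medians of 3500.3 and 2208 CPM. From 3000 to below 10000 CPM of OCM the share was 9 of 13 cells with ATOH1 and 1 of 9 without, and the intervals, 38.6 to 90.9% and 0.28 to 48.2%, overlapped. All 12 OCM-middle cells with LOXHD1 also held TMPRSS3, at a median of 670.3 CPM, whereas 76.3% of the 38 without LOXHD1 held it, at a median of 344 CPM. The 1 OCM-low cell with LOXHD1 also held ATOH1. In OCM-high cells LOXHD1 was in 4 of 4 cells with ATOH1 and in 48 of 54 without, which is too few cells with ATOH1 to compare.

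**Figure D4:**
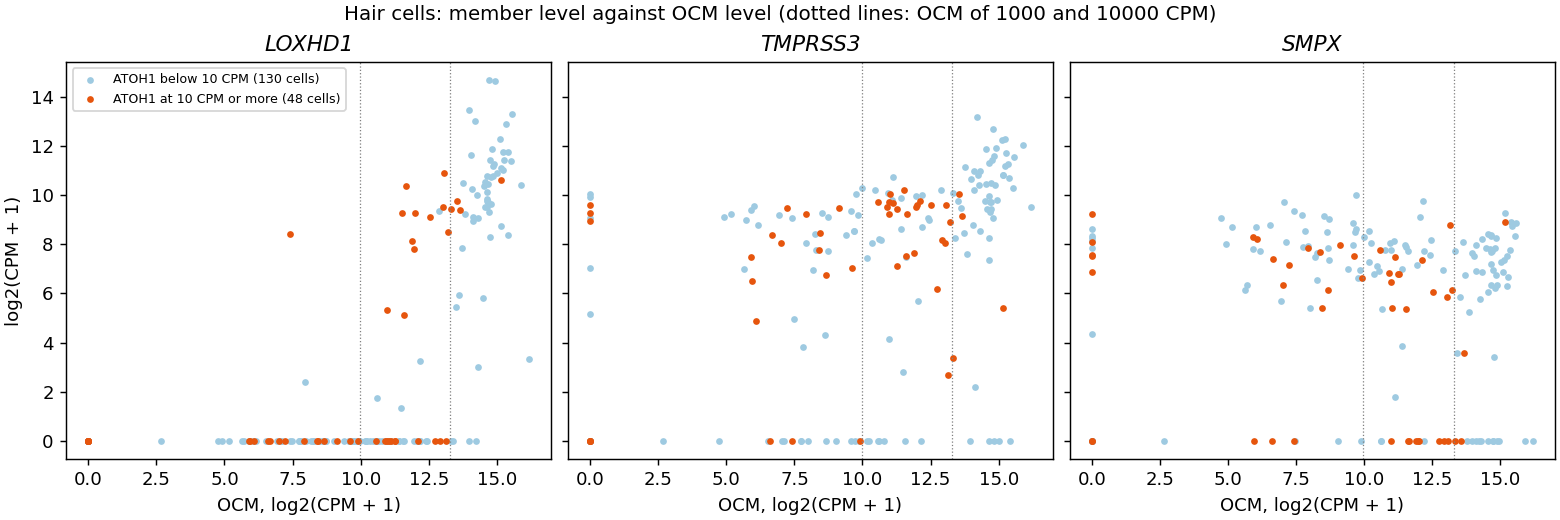
Level of LOXHD1, TMPRSS3 and SMPX against that of OCM in the hair cells, both as log2(CPM + 1), with cells at 10 CPM or more of ATOH1 in orange and the others in blue. Dotted lines mark 1000 and 10000 CPM of OCM. LOXHD1 lies at or near 0 to the left of the first line in all but 1 cell, TMPRSS3 is spread over all OCM levels with its highest values at the right, and 12 OCM-middle cells hold LOXHD1, of which 11 are orange.

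By ATOH1 detection 1 of the 5 genes was called, and ATOH1 detection was unlike between the OCM groups, lowest in OCM-high cells. ATOH1 was detected in 31.4% of OCM-low, 44% of OCM-middle and 6.90% of OCM-high cells. Between cells with and without ATOH1, 5.25% of all genes were called lower and 2.36% higher, and the gene of the 5 called lower was TMPRSS3. It stood at 526, 423, 441, 431 and 331 CPM with ATOH1 and at 759.9, 842, 922, 1119 and 904 CPM without it on plates 2 to 6. It was lower with ATOH1 on every plate, with a log2 ratio of -1.08 ± 0.36 (431 ± 69.3 against 909 ± 133.2 CPM). The call was lost without plate 5 (-0.991), without plate 6 (-0.998), with median-of-ratios scaling (-0.90) and without the hair cells at 1000 CPM or more of GJB6 (-0.988), and the difference of mean log2(CPM + 1) was 0.19. Within OCM-low cells the same ratio was -0.01, and within OCM-middle cells it was 0.40, with 3 of 5 plates above 0. No gene of the 5 was called within either OCM group, where 0.852% of all genes were called higher and 2.1% lower in OCM-low cells, and 3.03% and 3.05% in OCM-middle cells.

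SMPX was also lower with ATOH1 on 5 of 5 plates, at 85.6, 85.9, 106.9, 153.96 and 151.3 CPM against 185.5, 181.96, 258.7, 230.4 and 169.9 CPM. The log2 ratio was -0.81 ± 0.46, under the size for a call. Within OCM-low cells it was -0.71 and again below 0 on 5 of 5 plates, and within OCM-middle cells it was -1.40, below 0 on 4 of 5 plates. The detection share was 66.7% with ATOH1 (51.6 to 79.6%) and 80.8% without (72.9 to 87.2%), and these intervals overlapped. LOXHD1 had a log2 ratio of -2.30 ± 1.77, lower on 4 of 5 plates, while its detection share was much the same, 33.3% (20.4 to 48.4%) with ATOH1 and 37.7% (29.3 to 46.6%) without. Within OCM groups its direction turned, to 3.13 in OCM-low cells, where 1 cell held it, and to 3.13 in OCM-middle cells, where it was higher on 4 plates and lower on 0, and it was called in neither. DFNB59 had a log2 ratio of -0.31 ± 0.64 and XIRP2 one of 0.19 ± 0.24, neither of one sign on all plates.

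Most hair cells held several of the genes at once. None of the 5 was detected in 3 hair cells, 1 gene in 8 cells, 2 in 9, 3 in 49, 4 in 78 and all 5 in 31 cells. The mean was 3.60 genes per hair cell, from 3.37 to 3.85 by plate, against 0.24 per supporting cell. All 5 genes together were found in 0 of 70 OCM-low cells, which allows up to 4.29%, in 4 of 50 OCM-middle cells and in 27 of 58 OCM-high cells, a split that LOXHD1 sets. The 3 hair cells with none had a median of 1210 genes, against 3457 in the other hair cells. Hair cells without TMPRSS3, DFNB59, SMPX or XIRP2 had fewer genes than cells with it, for example 1778.5 against 3566.5 genes at the median for XIRP2, and the part of depth in this was not tested. Cells without LOXHD1 did not have fewer genes, with medians of 3509 without and 3412 with it.

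Over all hair cells, those without a gene included, the log2 levels of the 5 genes had low correlations. TMPRSS3 and LOXHD1 had a Pearson correlation of 0.38 (0.24 to 0.61 by plate), and 58 of the 65 cells with LOXHD1 also held TMPRSS3. SMPX and XIRP2 had 0.22, and the other 8 pairs lay between -0.18 and 0.18. These values mix detection with level and include the shared depth of a cell, and they describe cells and not independent samples.

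The genes most like each member were taken as the 5 highest Pearson correlations of log2(CPM + 1) over the hair cells, among 4838 genes that 20% or more of them held. LOXHD1 was closest to CIB2 (0.77, from 0.63 to 0.87 by plate), a calcium-binding protein that works with the mechanotransduction channel, and to CALML4 (0.75), a calmodulin-like protein. ATP2B2, the calcium pump of hair bundles (0.72), CHRNA10, a nicotinic receptor subunit of efferent synapses (0.70), and DBF4B (0.67) followed. CIB2 had the same order as LOXHD1, with 5.76 CPM in OCM-low, 124.6 in OCM-middle and 768.3 in OCM-high cells. However, CIB2 also had 124.7 CPM in supporting cells. For TMPRSS3 the highest were RAB11A, a GTPase of recycling endosomes (0.45), MMD (0.43), NECAP1 (0.42), ETNPPL (0.42) and NAE1 (0.41). The values for the other genes were lower than for LOXHD1. DFNB59 reached 0.35 with ATP6V1B2, a subunit of the vacuolar proton pump, 0.34 with UBE2V1 and with GFI1, a transcription factor of hair cells, and 0.33 with PKM and MAP1LC3B. SMPX reached 0.41 with CKB, the brain-type creatine kinase, 0.38 with STARD10 and 0.37 with PRKAR1A and BAALC. XIRP2 reached 0.43 with TAX1BP1 and SYT14, 0.42 with TMX2 and 0.41 with GOT2. By plate, the values for ATP6V1B2, PKM, MAP1LC3B, CKB, TAX1BP1, TMX2, GOT2 and NAE1 reached below 0 on at least 1 plate. The number of genes per cell itself had a correlation of 0.43 with XIRP2, 0.37 with TMPRSS3 and 0.29 with DFNB59. It was 0.25 with SMPX and 0.03 with LOXHD1. Except for LOXHD1, the likeness values were thus not far from those with genes per cell, and the part of depth in them was not tested.

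Set beside other deafness genes, the 5 genes lay within the range of those of the hair bundle. All but LOXHD1 also lay within the range of the deafness genes outside the bundle, which reached 4.90 with LRTOMT, a panel gene. Of 29 bundle deafness genes measured, 24 were called higher in hair cells and 0 lower, with a median log2 ratio of 3.62, against the 17.4% of all genes called higher. The highest were MYO3A, an unconventional myosin (6.90), CDH23, the upper part of the tip link (5.29), and ADGRV1, an ankle link receptor (4.92). The lowest, RDX (-0.80), EPS8 (-0.76) and ELMOD3 (-0.50), were not called. Of 45 other deafness genes outside the bundle, 12 were called higher and 6 lower, with a median of 0.18. LRTOMT (4.90), the calcium channel gene CACNA1D (4.14) and the vesicular glutamate transporter gene SLC17A8 (4.11) were highest, and MPZL2 (-6.36), COL4A6 (-4.41) and MET (-4.03) lowest, of which COL4A6 was not called. Of 16 deafness genes known from supporting cells, matrix or ion transport, 1 was called higher, the anion exchanger gene SLC26A4 (4.92), and 10 lower, with a median of -5.68. KCNQ1 (0.12) and OTOG (-0.25) came next and were not called, and OTOGL (-8.92), GJB2 (-7.95) and SOX10 (-7.83) were lowest. MYO3A, CDH23, LRTOMT, OTOG, OTOGL, GJB2 and SOX10 were in the panels that set the cell classes, and GJB6, also a deafness gene of supporting cells, set the supporting cells, so their ratios are a description of that choice. Without the panel genes and GJB6, a choice made after seeing the data, 15 of 20 bundle genes were called higher and 0 lower, with a median of 2.81. Of the 40 other deafness genes left, 7 were called higher and 6 lower, and the median changed sign to -0.13. Of the 10 left of the supporting cell list, 1 was called higher and 5 lower, with a median of -4.61.

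**Figure D5:**
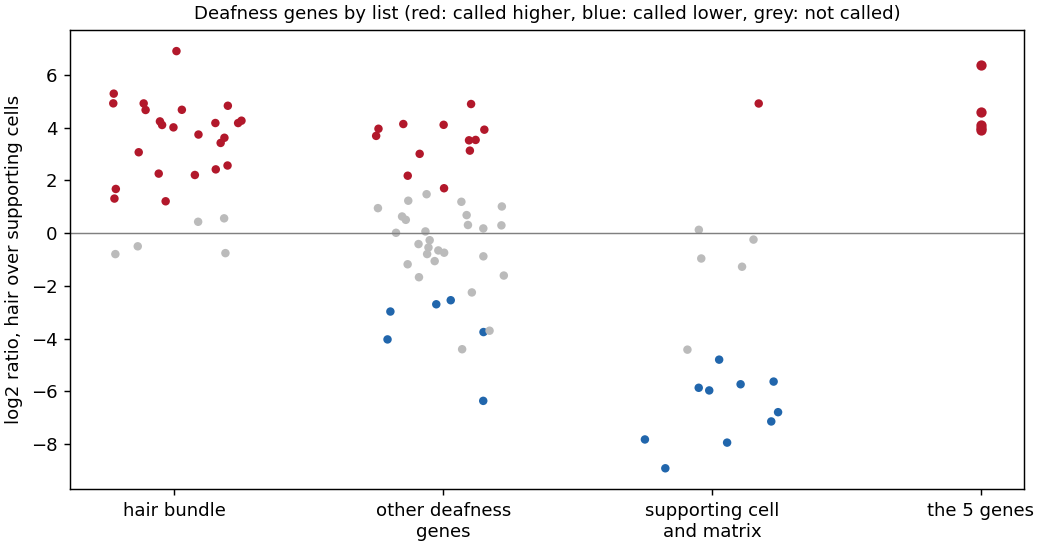
Log2 ratio of hair over supporting cells for each measured gene of 3 lists of deafness genes and for the 5 genes, with genes called higher in red, called lower in blue and not called in grey. The 5 genes lie between 3.92 and 6.37, within the range of the 24 bundle genes called higher. The list of other deafness genes spreads to both sides of 0 and reaches 4.90, above all of the 5 genes but LOXHD1.

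Genes near the members in function were read against the 17.4% of all genes called higher and the 9.24% called lower. Of 18 peroxisome genes, read beside DFNB59, 1 was called higher in hair cells, the superoxide dismutase SOD1 (1.39), and 0 lower, with a median of 0.31. Of 8 genes read beside TMPRSS3, 2 were called higher, the related protease TMPRSS7 (4.75) and the potassium channel KCNMA1 (3.77), and 4 lower, TMPRSS9 (-2.67), TMPRSS13 (-3.10), ST14 (-2.89) and the protease inhibitor SPINT1 (-2.30). TMPRSS7 was found in 94.4% of hair cells and, unlike TMPRSS3, was not called between OCM-high and OCM-low cells, with a ratio of 0.61 on the log2 scale. Of 10 actin-binding and muscle-type adaptor genes, read beside XIRP2 and SMPX, 1 was called higher, the Z-disc gene LDB3 (3.15), and 3 lower, among them NEBL (-1.14) and CSRP2 (-2.68).

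Because SMPX and XIRP2 are also muscle genes, muscle markers were counted in the same cells. Of 26 muscle markers listed, 12 were found by symbol in the data, and the others could not be counted. Of the 12, LDB3 and TNNC2 reached 10 CPM in 20% of hair cells or more. XIRP1, the muscle relative of XIRP2, had 0 counts in every group. The summed level of the 12 was 350.4 to 602 CPM by plate in hair cells and 12.1 to 133.6 CPM in supporting cells. Levels of single markers below are means over all cells of a group, not over plates. TNNC2, the fast troponin C, stood at 12.4 CPM in OCM-low, 27.2 in OCM-middle and 368 in OCM-high cells, an order that neither SMPX nor XIRP2 showed. LDB3 went the other way, at 386 CPM in OCM-low, 291.2 in OCM-middle and 168.1 in OCM-high cells. The skeletal actin gene ACTA1 was at 0 in OCM-low and OCM-high cells, at 2.54 CPM in OCM-middle cells and at 19.3 CPM in supporting cells, of which 6.38% held it.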

How the data were processed

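Each of the 300 cells had a deposited file of expected counts, estimated counts per gene that need not be whole, made by the authors. Per the submitters' processing notes the tools included FastQC, STAR and RSEM, with versions, build and annotation not given in the sources used here. Values of 12 symbols on 2 rows were summed, which gave 13631 symbols. Expected counts were rounded to whole numbers only for sums of counts and thinning.

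Cells with at least 1000 genes and 50000 counts, 276 in all, were kept and scaled to CPM by their total. Cells were classed by 19 hair cell and 17 supporting cell panel genes found, without the 5 genes, OCM, ATOH1 or GJB6, which gave 178 hair cells. Cells were sorted singly, per the labels' protocols. Doublets were not called, and whether a well held more than 1 cell was not tested. A gene was measured at 10 CPM or more in at least 5 cells. Plates needed 5 cells a side between classes and 3 between hair cell groups. With 1 group in the labels no test was made, and plates, which no label ties to an animal or sort batch, give the spread. Named were the 5 genes, the 5 genes most like each, the 3 highest and 3 lowest of each deafness list, and OCM, ATOH1 and GJB6, except a few genes that are not reported here. Genes named from other lists, and TNNC2 and KCNAB1, were chosen after their values were seen. The members, lists and class rules were chosen with earlier results of these data known. Calls were tested on simulated data with known folds. That simulation did not model the hair cells without the gene, which each of the 5 genes had, nor the few very high cells of LOXHD1. It therefore cannot show how calls behave for these genes. Alternatives changed the cell filter, scaling, pseudocount, averaging, class bounds, detection bound and plates, and further ones were added after seeing the data. Intervals are exact binomial (Clopper-Pearson) and exact Poisson at 95%, and a share of 0 has a limit of 3 cells over the total. Python 3.11.15, numpy 2.4.6, pandas 2.3.3, SciPy 1.17.1 and matplotlib 3.10.9 were used.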

Additional observations from a re-analysis of the deposited data

Results flagged for a closer look

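Values of the 5 plates were compared within each cell group, and in 5 of 70 sets of plates 1 plate lay far from the others. Far meant a gap to the next plate of over 0.71 of the range, Dixon's outlier rule, used here as a flag only. That bound marks about 1 in 20 sets of independent, normally distributed values. The sets here share cells and some have plates at 0, so that rate cannot be applied to them. DFNB59 was detected in 100% of OCM-low cells on plate 2, against 71.4 to 78.6% on the other plates. LOXHD1 had a mean of 24.2 CPM and a detection share of 7.14% in OCM-low cells on plate 6, against 0 to 0.32 CPM and a share of 0 elsewhere, and both values came from 1 cell. SMPX had a mean of 36.5 CPM in the supporting cells of plate 2, against 0 to 8.54 CPM on the others, and 2 of the 5 supporting cells that held 4 of the genes were on that plate. XIRP2 was detected in 90.9% of OCM-middle cells on plate 5 and in 100% on each other plate.

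The 24 cells left out for few genes, with a median of 818 genes and 145378 counts, also held some of the genes. DFNB59 was detected in 12.5% of them, LOXHD1 in 20.8% and SMPX in 8.33%, each above its share in the supporting cells kept, which was 5.32, 3.19 and 5.32%. These cells were not classed, and which kind they were was not tested.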

How the results depend on the processing

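Of 467 values recomputed under an alternative, 423 moved by less than the plate SD, or 1.5 times for a count, and 42 moved further. The remaining 2 were called in the main run and changed sign. A change of sign was not counted for values without a call, such as LOXHD1 by ATOH1, which ran from -2.6 to 3.13. In each alternative run the 5 genes were called higher in hair cells, and LOXHD1 and TMPRSS3 higher in OCM-high than OCM-low cells. The call of TMPRSS3 by ATOH1 was the least stable: its ratio was 0.19 with the difference of mean log2(CPM + 1), which weights zeros more, and, within OCM groups, a choice made after seeing the data, -0.0103 in OCM-low and 0.40 in OCM-middle cells. The number of the 5 genes called by ATOH1 was 2 under the stricter cell filter, without a cell filter and with ATOH1 at 1 count, LOXHD1 being the second, 0 under median-of-ratios scaling and within each OCM group, and 0 to 2 when a plate was left out. Of the genes measured, 2.36% were called higher and 5.25% lower by ATOH1, against 6.48 and 1.42% with mean log2 values, 0.852 and 2.1% within OCM-low cells, 3.05% lower within OCM-middle cells, and 3.34 to 3.95% and 7.32 to 8.17% without a plate. By ATOH1, mean log2 values gave -1.39 for SMPX, which was then called, and 0.93 for XIRP2. Within OCM-low cells LOXHD1 was at 3.13 and XIRP2 at 0.78, and within OCM-middle cells LOXHD1 was at 3.13, SMPX at -1.40 and XIRP2 at -0.26. Between OCM groups LOXHD1 was at 11.01 under the stricter filter and at 8.33 to 11.04 without a plate, where the single positive OCM-low cell was left out, and TMPRSS3 was at 3.85 with mean log2 values. Between hair and supporting cells, mean log2 values gave 3.45 for LOXHD1, 7.65 for XIRP2 and 6.12% of genes called lower. SMPX was at 6.14 with the GJB6 bound at 5000 CPM. Without supporting cells of 50% or more of the hair cell panel, TMPRSS3 was at 9.48, DFNB59 at 8.72, SMPX at 6.52 and XIRP2 at 9.68. The stricter filter gave detection of 88.1% for DFNB59 and 93.4% for XIRP2 and 3.86 genes per hair cell, and detection at 1 count gave 39.9% for LOXHD1. Deafness genes of supporting cells called higher numbered 1 to 2 without a plate, and 2 without plate 4. Where nothing is said, the cause was not tested. Each main ratio is that of the mean CPM averaged over the plates. Ratios within plates gave only the sign rule and the SD, so a printed ratio need not equal their mean. Both sides of a comparison shared plates, and this pairing entered only the sign rule and the SD. No paired test was made, and the labels give 1 group and no animal for a cell. Depth limits cells near 10 CPM, where a gene rests on few counts.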
